A study of Mus musculus with 16 samples.

Results

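The *Skint* genes described here are the 10 genes *Skint1* to *Skint10* of the mouse, called the family below although *Skint11*, a further relative, is described apart. They were chosen by name and identified in the count tables through their Ensembl identifiers, as 10 of 55359 genes listed. They were measured by bulk RNA sequencing of whole dorsal skin from wild-type C57Bl/6 mice aged 8 weeks, whose skin the labels place in telogen, when hair follicles rest. The study names the strain C57Bl/6N. The 16 mice formed 4 groups of 4, namely males given 3 exposures to UVB, males without UVB, females given 3 exposures to UVB and females without UVB. No group carried a transgene or a drug, and the labels do not state whether the no-UVB mice were handled in the same way as the irradiated mice. Skin was taken whole, so that epidermis, dermis, fat and muscle contributed to each library.

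Skint proteins are relatives of the butyrophilins, with immunoglobulin-like domains outside the cell followed by membrane-spanning segments, and they are made mainly by keratinocytes and by epithelial cells of the thymus. *Skint1* is the founding member and is needed in the fetal thymus for the selection of the Vγ5Vδ1 T cells that later settle in the mouse epidermis as dendritic epidermal T cells. *Skint3* and *Skint9* have been linked to the exchange of signals between keratinocytes and these T cells at wounds, and the roles of most other members are less well defined.

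The 10 genes lay in a single cluster of 2.08 Mb on chromosome 4 (GRCm39, 111776589 to 113856700). In order along the chromosome they were *Skint8*, *Skint7*, *Skint1*, *Skint4* and *Skint3* on the plus strand, *Skint9* on the minus strand, *Skint2* on the plus strand, and *Skint10*, *Skint6* and *Skint5* on the minus strand. *Skint6* and *Skint5* stood apart in build, with 49 and 59 exons in their canonical transcripts, spans of 482.4 and 521.8 kb, and predicted proteins of 1240 and 1475 residues. The canonical transcripts of the other 8 genes had 7 to 11 exons and coded for 319 to 474 residues. The annotation placed 14 other genes inside the cluster, 9 of them pseudogenes. Of these, 12 were listed in the count tables and none had enough reads to be tested, the highest having a mean of 0.254 CPM (reads of a gene per 1000000 reads of the library).

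The members fell into 3 pairs of close sequence, whose genes are set against each other within each mouse below. Predicted protein identity was 83.3% between *Skint7* and *Skint8*, 77% between *Skint5* and *Skint6* and 73% between *Skint9* and *Skint10*, whereas the median over all pairs of members was 39.8%. Protein and upstream identity were both counted over aligned positions, with gaps left out. In the 250 bases upstream of the annotated starts, these pairs matched at 92.8% of 223 aligned bases, 88.8% of 250 and 76.4% of 203. The median over all pairs of members was 62.7%. *Skint2* with *Skint3* was close behind at 75% of 224 aligned bases, with 66.4% protein identity. Shown first are the upstream windows of the *Skint7* and *Skint8* pair, at chr4:111829870-111830119 and chr4:111776345-111776594 on the plus strand of GRCm39, because these genes share most of their upstream sequence. Capitals mark a match to the TATA letters TATAAA, read on either strand.
Skint7: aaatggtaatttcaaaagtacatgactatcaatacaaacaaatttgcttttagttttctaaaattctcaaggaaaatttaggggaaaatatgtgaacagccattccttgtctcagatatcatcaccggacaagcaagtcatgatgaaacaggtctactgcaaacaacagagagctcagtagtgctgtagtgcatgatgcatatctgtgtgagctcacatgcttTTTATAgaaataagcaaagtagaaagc
Skint8: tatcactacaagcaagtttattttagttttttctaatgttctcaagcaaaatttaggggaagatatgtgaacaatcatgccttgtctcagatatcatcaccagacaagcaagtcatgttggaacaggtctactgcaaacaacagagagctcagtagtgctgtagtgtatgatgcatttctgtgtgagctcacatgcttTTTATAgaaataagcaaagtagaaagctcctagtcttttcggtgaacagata
The second set is the *Skint5* and *Skint6* pair, whose windows lay on the minus strand at chr4:113856701-113856950 and chr4:113144171-113144420. Neither held any of the letters searched, so nothing is in capitals.
Skint5: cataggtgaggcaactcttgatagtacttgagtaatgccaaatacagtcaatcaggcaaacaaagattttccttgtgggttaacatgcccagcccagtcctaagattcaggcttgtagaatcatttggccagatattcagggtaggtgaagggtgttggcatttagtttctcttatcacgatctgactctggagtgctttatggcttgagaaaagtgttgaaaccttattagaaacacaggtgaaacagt
Skint6: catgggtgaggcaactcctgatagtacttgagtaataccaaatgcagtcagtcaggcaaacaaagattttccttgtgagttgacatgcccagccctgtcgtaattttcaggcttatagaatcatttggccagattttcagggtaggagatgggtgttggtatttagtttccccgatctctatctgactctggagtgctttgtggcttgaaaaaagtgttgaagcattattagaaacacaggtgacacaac
The third set holds the genes that were higher after UVB in males, *Skint1* at chr4:111863216-111863465 and *Skint3* at chr4:112089192-112089441, both on the plus strand. Capitals mark a TATA match and a match to the letters CCAAT in *Skint1*, and a CCAAT match in *Skint3*.
Skint1: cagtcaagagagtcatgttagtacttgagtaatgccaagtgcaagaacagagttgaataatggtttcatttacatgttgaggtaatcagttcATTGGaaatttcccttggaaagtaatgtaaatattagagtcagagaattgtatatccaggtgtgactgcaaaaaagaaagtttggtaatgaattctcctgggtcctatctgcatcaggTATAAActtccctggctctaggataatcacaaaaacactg
Skint3: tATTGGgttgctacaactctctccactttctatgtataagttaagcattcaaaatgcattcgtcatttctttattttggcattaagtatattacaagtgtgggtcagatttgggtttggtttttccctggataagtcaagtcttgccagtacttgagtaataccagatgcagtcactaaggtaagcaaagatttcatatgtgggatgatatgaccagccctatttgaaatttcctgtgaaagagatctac

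Motif letters were counted on both strands in the same window of 21770 protein-coding genes for comparison. The TATA letters TATAAA were present upstream of *Skint8*, *Skint7*, *Skint1* and *Skint9*, 4 of the 10 members, and of 11.9% of all genes. CCAAT was found upstream of *Skint1*, *Skint3*, *Skint9* and *Skint10*, and in 36.5% of all windows. A C/EBP motif (TTGCNNAA) was present in *Skint2* and in 9.34% of all windows. None of the 10 windows held the AP-1 letters TGANTCA (6.17% of all windows), the KLF letters CCACCC (28.6%), the SP letters GGGCGG (36.3%), the Grainyhead-like letters AACNGGTT (1.79%) or the E-box CACGTG (6.26%). These letter matches are a description of the windows. Among the 6 members that were lower after UVB in males (below), *Skint7* and *Skint8* held TATA letters, *Skint10* held CCAAT, and *Skint5*, *Skint6* and *Skint4* held none of the letters searched.

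Stretches long enough to blur the counts were shared between members in a single pair. Of all stretches of 100 bases in the canonical transcripts, 89.69% of those of *Skint8* and 91.99% of those of *Skint7* occurred in no other annotated transcript, and the 138 remaining stretches were shared between these genes. In *Skint5*, 202 stretches were repeated within the gene itself, which leaves 95.6% unique, and the other 7 genes were unique throughout. An antisense long noncoding RNA, *Gm12823*, overlapped exons of *Skint6*, and the strand-specific counts separate it. Libraries held 16495776 to 33404831 reads on genes (median 21767339), of which each member took between 84 and 4777.

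All 10 genes were expressed in every mouse and passed the filter on low counts. Levels are given as CPM scaled by the trimmed mean of M values (TMM), and between genes only per kilobase of exon. In no-UVB males, *Skint9* stood highest at 38.0 ± 5.55 CPM per kb (SD, n = 4 mice here and in each group below), followed by *Skint3* at 27.0 ± 2.16, and the ranges of these genes did not overlap with each other or with any gene below them. *Skint6* (13.4), *Skint10* (11.7), *Skint5* (10.8) and *Skint4* (9.98 CPM per kb) followed with each range overlapping the next. *Skint1* (6.12), *Skint7* (6.01) and *Skint2* (5.08) formed a lower group with overlapping ranges, and *Skint8* was lowest at 1.92 ± 0.247 CPM per kb. In no-UVB females *Skint9* (37.2 ± 4.23) and *Skint3* (30.7 ± 5.07 CPM per kb) led with overlapping ranges, the 7 genes from *Skint6* to *Skint1* lay between 12.7 and 7.92, and *Skint8* was again lowest at 2.27 ± 0.558. After UVB, *Skint3* (39.5 ± 3.77) and *Skint9* (34.3 ± 4.83 CPM per kb) overlapped at the top in males, while in females *Skint9* (50.9 ± 8.04) was above *Skint3* (37.0 ± 4.09) without overlap. The order rests on the length used, the second place included. A second length was the canonical transcript open to unique 100-base stretches, in place of all exons. With it, *Skint10* rose from 11.7 to 33.1 CPM per kb in no-UVB males, *Skint7* from 6.01 to 16.6 and *Skint1* from 6.12 to 15.9. *Skint2* rose from 5.08 to 9.38 and *Skint8* from 1.92 to 7.43, while *Skint3* moved from 27.0 to 27.7, below *Skint10*. The counts still covered all exons, so genes with long exons outside the canonical transcript rise by construction.

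After UVB the members moved in both directions. In males 6 genes were lower and 2 were higher after UVB, and *Skint9* and *Skint2* were not called, at an adjusted p under 0.1 by the quasi-likelihood test of edgeR, adjusted by Benjamini and Hochberg's method over 16535 genes. In the same comparison 30.5% of all genes tested were lower and 29.0% higher, so that changes were common in the whole skin. The median log2 change of the 10 members was -0.45, against -0.02 over all genes. Group ranges did not overlap for 6 members lower and 2 higher, a pattern that 24.3% and 22.9% of all genes showed. Past a log2 change of 1 in size were *Skint7* and *Skint5*, and 3.31% of all genes were that far down. In females 4 genes were lower and 1 was higher over 16883 genes tested, of which 10.6% were lower and 12.8% higher in all. The median log2 change of the members was -0.21 there, against 0.00 over all genes (0.00247 before rounding), and 3 members were lower and 1 higher without overlap, where the background was 10.1% and 11.1%. Only *Skint7* passed a log2 change of 1 in females, as did 1.08% of all genes in the downward direction. In bulk skin, fewer keratinocytes and less RNA per keratinocyte cannot be told apart.

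**Figure D1:**
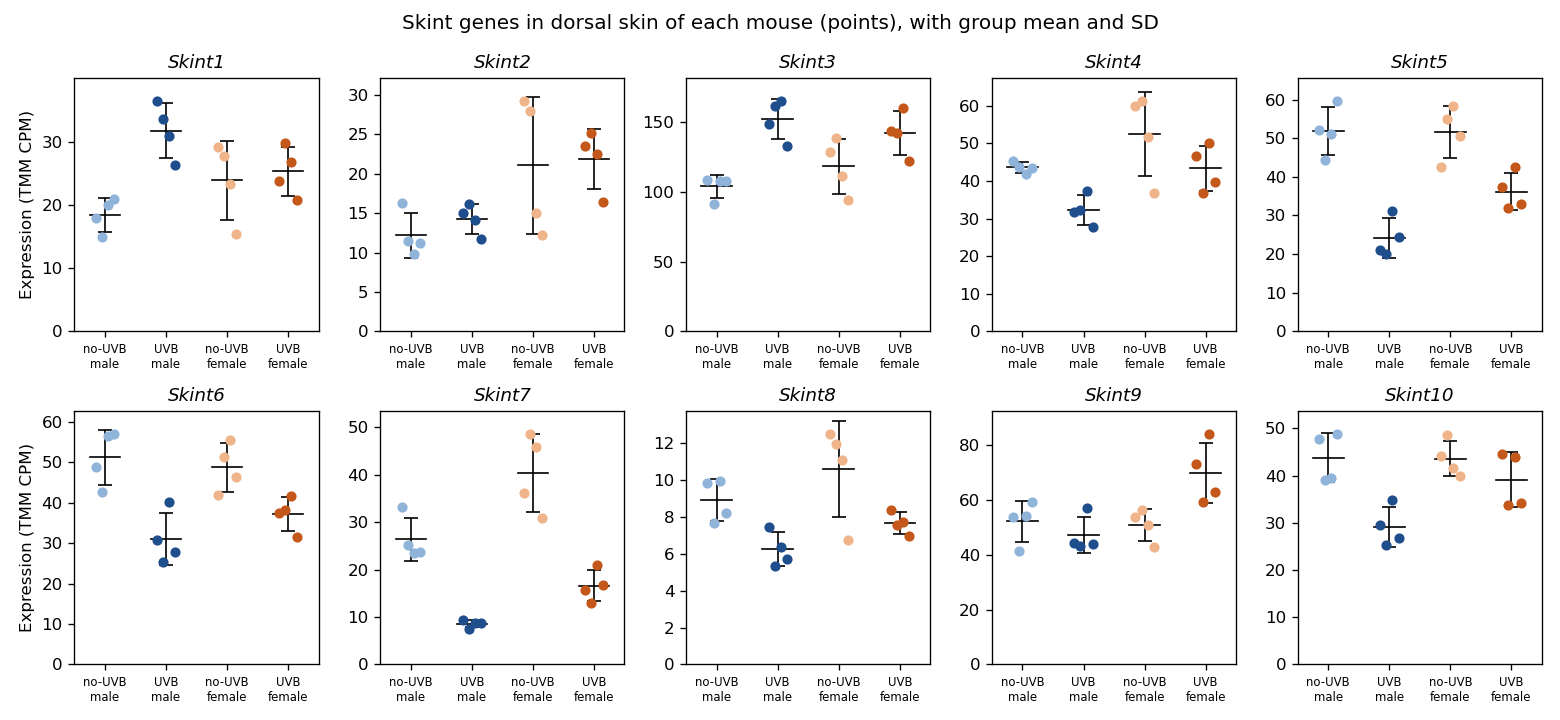
Expression of each *Skint* gene (TMM CPM, axis from 0) in every mouse of the 4 groups, with points for mice and black lines for the group mean and SD. *Skint7* fell in both sexes with no overlap between groups, *Skint1* and *Skint3* rose in males, and *Skint9* rose in females.

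*Skint1*, the gene needed for the selection of dendritic epidermal T cells, rose in males. It stood at 17.9, 14.9, 20.0 and 20.9 CPM in the 4 no-UVB males and at 36.3, 33.5, 30.9 and 26.2 CPM in the 4 UVB males. Every irradiated male was above every male without UVB. The log2 change was 0.81 (SE 0.122, 1.75-fold, adjusted p = 0.000268 by edgeR's quasi-likelihood test). Females had 29.2, 27.7, 23.2 and 15.4 CPM without UVB and 23.8, 29.8, 26.7 and 20.7 CPM after it. These groups overlapped over most of their range, and the log2 change was 0.09 with a 95% interval of -0.33 to 0.51 (edgeR adjusted p = 0.788).

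*Skint3*, the member with the most reads, was also higher in UVB males. No-UVB males had 108.5, 91.5, 107.9 and 108.1 CPM, and UVB males 148.8, 161.8, 164.9 and 133.1 CPM. The irradiated males were all higher, with a log2 change of 0.57 (SE 0.0825, 1.49-fold, edgeR adjusted p = 0.000179). In females the values were 128.9, 138.4, 111.5 and 94.2 CPM without UVB and 144.0, 142.4, 160.5 and 122.1 CPM after it, with overlap between the groups. The female log2 change was 0.27 (95% interval 0.00158 to 0.55, edgeR adjusted p = 0.163) and was not called. *Skint3* alone gave 25.2% ± 0.605 of the reads of the family in no-UVB males and 40.4% ± 2.22 in UVB males, and 25.6% ± 1.31 and 32.4% ± 1.12 in the corresponding females.

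*Skint9*, the other member linked to wound signalling, was higher after UVB in females. It stood at 53.9, 56.3, 50.8 and 42.9 CPM in no-UVB females and at 73.0, 59.4, 83.9 and 62.9 CPM in UVB females. All irradiated females exceeded all females without UVB, with a log2 change of 0.46 (SE 0.119, 1.38-fold, edgeR adjusted p = 0.0268), and the call held in each of 8 fits that left out a mouse. Males had 53.8, 41.3, 54.1 and 59.3 CPM without UVB and 44.4, 43.1, 57.0 and 43.8 CPM after it. Their groups overlapped, and the log2 change of -0.12 was not called (95% interval -0.39 to 0.15, edgeR adjusted p = 0.419).

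*Skint7* fell the most of all members in both sexes. It was at 33.1, 25.1, 23.6 and 23.6 CPM in no-UVB males and at 9.28, 7.53, 8.71 and 8.66 CPM in UVB males. No-UVB females had 36.2, 48.5, 45.8 and 30.9 CPM, and UVB females 15.7, 13.02, 20.9 and 16.8 CPM. In each sex the irradiated mice were all below the mice without UVB, and the UVB males were also all below the UVB females. The log2 change was -1.60 in males (SE 0.122, 3.02-fold lower, adjusted p = 2.82e-06) and -1.28 in females (SE 0.171, 2.42-fold lower, adjusted p = 0.00132, both by edgeR's quasi-likelihood test). No single mouse decided this, since the change ranged from -1.65 to -1.47 in males and from -1.41 to -1.18 in females when each was left out.

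*Skint8*, the neighbour and closest relative of *Skint7*, was lower by a smaller fitted change. It was at 9.83, 7.69, 9.96 and 8.20 CPM in no-UVB males and at 7.47, 5.36, 6.39 and 5.74 CPM in UVB males, without overlap (log2 change -0.48, SE 0.135, edgeR adjusted p = 0.011). Females went from 12.5, 12.0, 11.1 and 6.77 CPM to 8.39, 7.54, 7.71 and 6.97 CPM, where the fourth no-UVB female lay below every irradiated female. The female log2 change was -0.46 (SE 0.172) with an edgeR adjusted p of 0.0951, close to the threshold, and 7 of the 8 fits that left out a mouse did not call it. Without the fourth no-UVB female it was -0.63 (adjusted p = 0.00614), and over all 8 fits the adjusted p ranged from 0.00614 to 0.209.

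The long genes *Skint5* and *Skint6*, neighbours at the other end of the cluster, were lower in both sexes. *Skint5* was at 52.1, 44.3, 51.2 and 59.5 CPM in no-UVB males and at 21.0, 20.0, 31.3 and 24.5 CPM in UVB males. In females it was at 42.6, 54.9, 58.3 and 50.6 CPM without UVB and at 37.3, 32.0, 42.6 and 32.97 CPM after it. The male groups lay far apart, whereas the highest irradiated female all but met the lowest female without UVB. The log2 change was -1.08 in males (SE 0.141, 2.11-fold lower, adjusted p = 0.00016) and -0.51 in females (SE 0.117, 1.42-fold lower, adjusted p = 0.017, both by edgeR's quasi-likelihood test). For *Skint6*, CPM went from a range of 42.7 to 56.9 down to 25.3 to 40.2 in males and from 41.79 to 55.5 down to 31.4 to 41.75 in females. Its log2 change was -0.70 (SE 0.146, edgeR adjusted p = 0.00282) in males and -0.38 (SE 0.109, edgeR adjusted p = 0.0405) in females, and the female call was lost without the third no-UVB female, with an edgeR adjusted p of 0.104.

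The remaining genes, *Skint10*, *Skint4* and *Skint2*, lie between those groups and were called in males or in neither sex. *Skint10*, the close relative of *Skint9*, went from 39.1 to 48.7 CPM in no-UVB males down to 25.2 to 34.8 CPM in UVB males (log2 change -0.57, SE 0.11, edgeR adjusted p = 0.00143). *Skint4* was at 42.0 to 45.3 CPM in no-UVB males and at 27.8 to 37.3 CPM in UVB males (log2 change -0.41, SE 0.084, edgeR adjusted p = 0.0017). In females neither was called, with log2 changes of -0.15 (95% interval -0.39 to 0.09) for *Skint10* and -0.27 (95% interval -0.62 to 0.08) for *Skint4*, although *Skint4* was called without the fourth no-UVB female (edgeR adjusted p = 0.0476). *Skint2* was not called in either sex, at 0.25 in males (95% interval -0.10 to 0.59) and 0.06 in females (95% interval -0.54 to 0.67), and it varied widely among no-UVB females, at 29.2, 27.9, 15.0 and 12.2 CPM. Without the first no-UVB male it was called higher in males (log2 change 0.42, edgeR adjusted p = 0.0175).

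**Figure D2:**
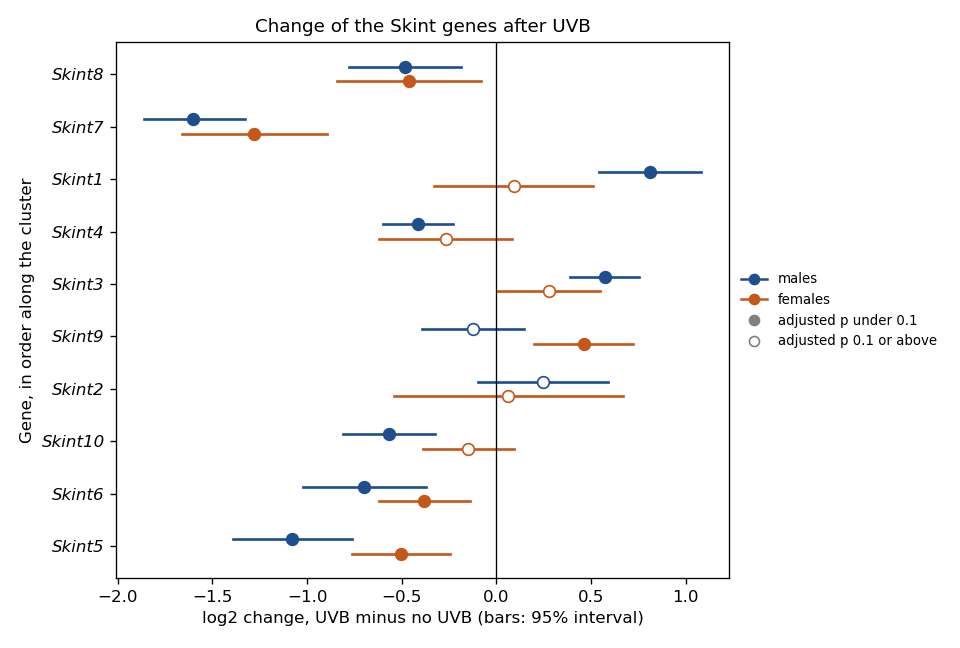
Fitted log2 change after UVB with its 95% interval for each *Skint* gene, in order along the cluster, in males and in females. Filled points passed an adjusted p of 0.1 and open points did not. *Skint7* and *Skint5*, at -1.60 and -1.08, moved furthest in males, and *Skint1* and *Skint3* lie to the right of 0.

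Genes of a sequence pair were then set against each other within each mouse, which removes the library scaling. The ratio of *Skint7* to *Skint8* was 2.97 ± 0.454 in no-UVB males and 1.38 ± 0.111 in UVB males, and 3.91 ± 0.709 and 2.18 ± 0.459 in the corresponding females. The ratio of *Skint9* to *Skint10* went the other way, from 1.19 ± 0.133 to 1.62 ± 0.0862 in males and from 1.17 ± 0.0689 to 1.78 ± 0.117 in females. In both pairs and both sexes the groups did not overlap. For *Skint5* to *Skint6* the ratio fell from 1.02 ± 0.0732 to 0.783 ± 0.0828 in males, and in females the values of 1.06 ± 0.0313 and 0.975 ± 0.0949 overlapped. These ratios were chosen after the values of the members were seen, so they are given as a description and no test result is reported for them. Across the family, the ratio of *Skint7* to *Skint3* was 0.218 to 0.305 in no-UVB males and 0.0465 to 0.065 in UVB males, and 0.28 to 0.411 against 0.0914 to 0.138 in females. That of *Skint5* to *Skint1* was 2.56 to 2.97 in no-UVB males and 0.578 to 1.01 in UVB males, and in females the ranges of 1.46 to 3.29 and 1.07 to 1.59 overlapped.

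**Figure D3:**
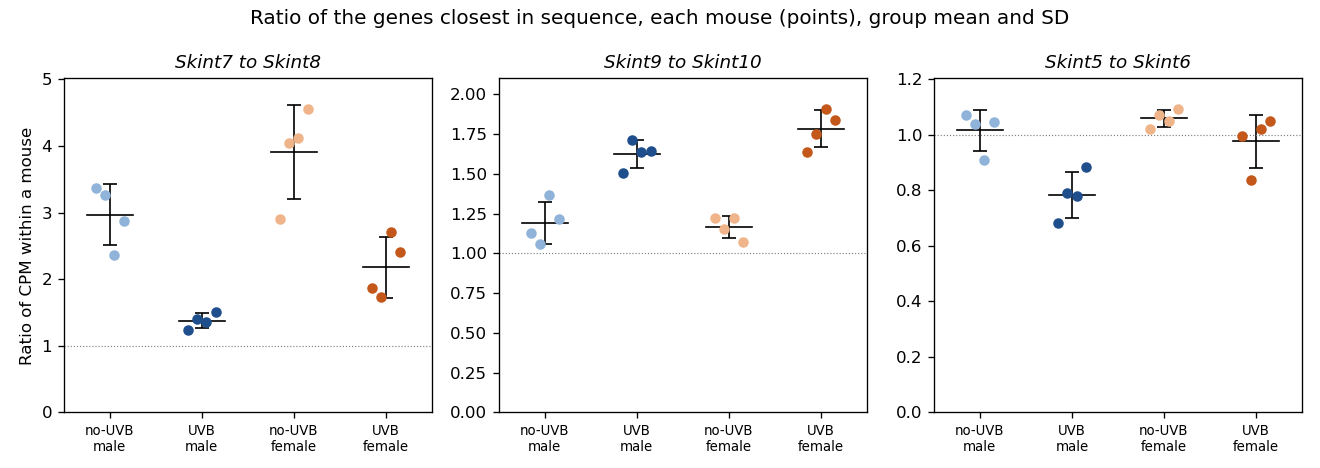
Ratio of CPM within each mouse for the 3 pairs of genes closest in sequence (axes from 0, dotted line at a ratio of 1), with the group mean and SD. After UVB the ratio of *Skint7* to *Skint8* was lower and that of *Skint9* to *Skint10* higher in both sexes, without overlap.

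The summed level of the family changed less than its make-up. The 10 genes together held 412 ± 35.3 CPM in no-UVB males and 377 ± 36.9 in UVB males, and 461 ± 62.8 and 439 ± 49.8 CPM in the corresponding females, with overlapping ranges in both sexes. In the share of family reads, *Skint7* went from 6.41% ± 1.07 to 2.28% ± 0.284 in males and from 8.71% ± 1.02 to 3.78% ± 0.596 in females. *Skint5* went from 12.5% ± 0.675 to 6.41% ± 1.05 in males, and *Skint1* from 4.46% ± 0.387 to 8.45% ± 1.12. The share of *Skint9* stayed at 12.6% ± 0.891 and 12.5% ± 0.863 in males and went from 11.1% ± 0.331 to 15.8% ± 1.14 in females.

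**Figure D4:**
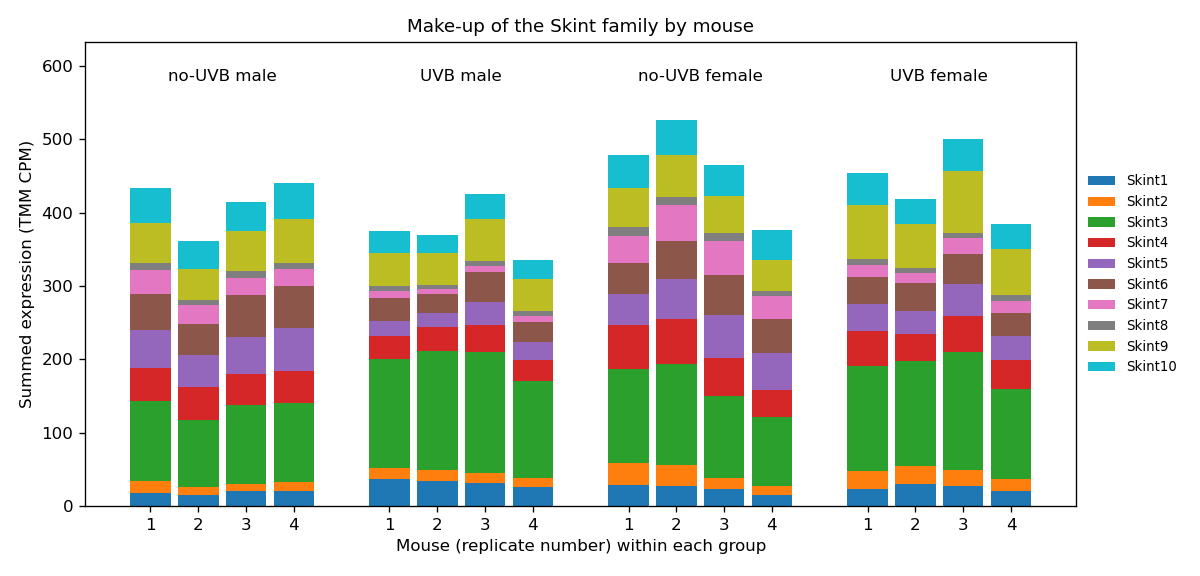
Stacked TMM CPM of the 10 *Skint* genes in each of the 16 mice (bars from 0), by group and replicate number. The bars are of similar height before and after UVB, while the *Skint3* segment widens from 25.2% to 40.4% of the family reads in males.

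Whether the response differed between the sexes was tested as the interaction of UVB and sex over all 16 mice. A single member, *Skint9*, was called, with a male response lower than the female response by a log2 difference of -0.60 (SE 0.183, edgeR adjusted p = 0.0853), against 4.25% of 17406 genes called lower. No member was called higher (2.75% of all genes), and *Skint1* came closest with a difference of 0.71 (SE 0.245, edgeR adjusted p = 0.119). Differences of -0.59 for *Skint5* (SE 0.195, edgeR adjusted p = 0.107) and -0.43 for *Skint10* (SE 0.166, edgeR adjusted p = 0.152) were also not called. These 4 genes were the members at an unadjusted p under 0.05, which 20.8% of all genes reached in either direction. The *Skint9* call was lost in 11 of 16 fits that left out a mouse, where its adjusted p ranged from 0.0536 to 0.17, so that it is near the threshold. For *Skint7*, the difference between the responses was -0.33 with a 95% interval of -0.82 to 0.15.

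Between the sexes without UVB, 2 members were lower in males and none higher, whereas 4.58% of all genes were lower and 7.21% higher. *Skint7* was lower in no-UVB males than in no-UVB females by a log2 difference of -0.62 (SE 0.154, edgeR adjusted p = 0.0231), with a small overlap of the groups, and was called in each of 16 fits without a mouse. *Skint2* was lower by -0.79 (SE 0.251, edgeR adjusted p = 0.0712), a call lost in 5 of those 16 fits. Leaving out the fourth no-UVB female, which was the lowest of its group for 8 of the 10 members, raised the count to 6 members lower in males. Among the 8 members not called, *Skint1* had the largest difference at -0.38 (edgeR adjusted p = 0.215). *Skint5*, *Skint10* and *Skint9* were at 0.00281 (95% interval -0.29 to 0.29), 0.00394 (-0.24 to 0.25) and 0.03 (-0.24 to 0.30).

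After UVB, 6 members were lower in males than in females and none higher, against 12.5% and 12.8% of all genes. *Skint5*, *Skint9* and *Skint10*, which were not called without UVB, were lower in UVB males than in UVB females by log2 differences of -0.58 (SE 0.14, edgeR adjusted p = 0.0113), -0.57 (SE 0.13, edgeR adjusted p = 0.0088) and -0.43 (SE 0.118, edgeR adjusted p = 0.0213). *Skint7* differed by -0.95 (SE 0.168, edgeR adjusted p = 0.00198) and *Skint4* by -0.43 (SE 0.136, edgeR adjusted p = 0.0411), and 3 of 16 fits without a mouse lost the call of *Skint4*, at an adjusted p of at most 0.116. *Skint2* was called at -0.62 with an edgeR adjusted p of 0.0995, a call lost in 10 of 16 fits without a mouse. *Skint1* and *Skint3*, which rose in males, did not differ past the threshold after UVB, at 0.33 (95% interval -0.04 to 0.69) and 0.10 (95% interval -0.14 to 0.33).

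**Figure D5:**
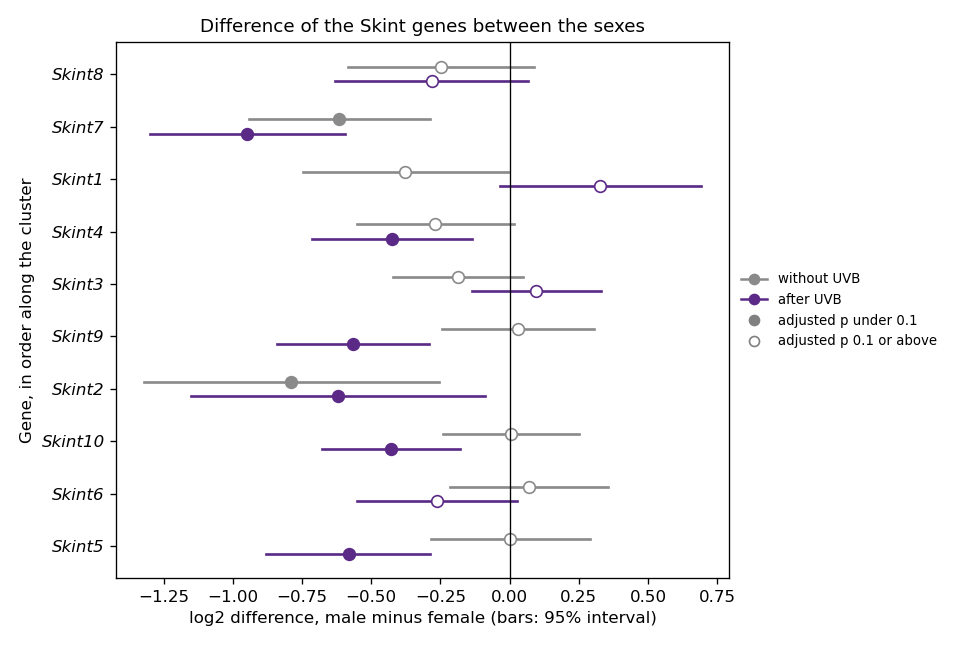
Fitted log2 difference, male minus female, with its 95% interval for each *Skint* gene without UVB and after UVB. Filled points passed an adjusted p of 0.1. *Skint7* and *Skint2* were lower in males in both conditions, and *Skint5*, *Skint9*, *Skint10* and *Skint4* were called lower after UVB.

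Neighbours of the cluster were read in the same fits. Within 500 kb of either end, 5 other genes had enough reads to be tested. *Skint11*, a relative at the far side of *Skint5* that is not counted among the 10, stood at 16.1 ± 3.25 and 17.9 ± 1.91 CPM in males without and with UVB, and at 15.2 ± 1.52 and 18.3 ± 1.7 CPM in females. It was not called in males (log2 change 0.18, edgeR adjusted p = 0.307) and was called higher in females (0.28, edgeR adjusted p = 0.09). *Trabd2b* fell in males and females (-0.71 and -0.76, edgeR adjusted p = 0.00408 and 0.012), as did *Spata6* (-0.28 in each, edgeR adjusted p = 0.0244 and 0.0445). *Slc5a9*, which adjoins *Skint8*, rose in males (0.83, edgeR adjusted p = 0.000492) and was at 0.17 in females (edgeR adjusted p = 0.449), and *Bend5* was not called.

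The T cells that depend on *Skint1* were followed through 16 marker genes, of which 14 were listed under those names. Among the 13 tested in males, 10 were lower after UVB and none higher, with a median log2 change of -0.60, where 30.5% of all genes were lower and 29.0% higher. Among the 14 tested in females 5 were lower and none higher, with a median of -0.38, where 10.6% of all genes were lower and 12.8% higher. *Itgae*, the integrin chain that binds these cells to E-cadherin, and *Jaml*, a costimulatory receptor, were not called in either sex, at log2 changes of -0.41 and 0.01 in males and -0.44 and -0.26 in females. *Il2rb*, a receptor chain for interleukin 15, fell in males (-0.50, edgeR adjusted p = 0.0154) and was at -0.22 in females (edgeR adjusted p = 0.522). Genes of the delta chain of the receptor were lower after UVB in both sexes. *Trdv4*, a variable gene, had log2 changes of -0.90 in males and -0.66 in females (edgeR adjusted p = 0.000704 and 0.0952). *Trdc*, the constant gene, does not set these cells apart from other γδ T cells. It changed by -0.52 and -0.74 (edgeR adjusted p = 0.00496 and 0.0203). Both genes were low but present, *Trdv4* at 1.30 to 2.87 CPM in males and 1.29 to 3.57 CPM in females. Summed levels of the list ran from 107 to 146.8 CPM in no-UVB males, 68.85 to 100.6 in UVB males, 139.9 to 244.5 in no-UVB females and 122 to 154.9 in UVB females. Between the sexes the list was lower in males for 5 of 14 genes without UVB and for 11 of 14 after it, where the shares over all genes were 4.58% and 12.5%. Between the sexes the receptor genes were not among those called, *Trdv4* at log2 differences of 0.15 and -0.10 in mice without and with UVB (edgeR adjusted p = 0.713 and 0.78) and *Trdc* at -0.25 and -0.05 (edgeR adjusted p = 0.385 and 0.883), and other list genes, such as *Cd3e*, are active in T cells of every kind. *Trdv4*, *Trdc* and *Cd3e* were named after their values were seen. The part of these cells in the *Skint* values was not tested.

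Other keratinocyte genes that act on these T cells moved in both directions in males. Of 10 such ligand genes tested, 6 rose and 4 fell in males, against 29.0% and 30.5% of all genes, and 1 rose and 1 fell in females, near the 12.8% and 10.6% of all genes. *Cxadr*, the ligand of *Jaml*, rose in males (log2 change 0.63, edgeR adjusted p = 0.000103), as did *Cdh1*, which codes for E-cadherin (0.54, edgeR adjusted p = 0.000232), and *Plxnb2*, a ligand of CD100 (0.49, edgeR adjusted p = 0.000274), and none of the 3 was called in females. *H60c*, a ligand of the NKG2D receptor that was picked after its values were seen, was at 14.9 ± 3.67 CPM in no-UVB males, 88.3 ± 8.52 CPM in UVB males, 15.99 ± 4.04 CPM in no-UVB females and 52.2 ± 8.35 CPM in UVB females (log2 change 2.59 and 1.71, edgeR adjusted p = 2.73e-06 and 0.000436). In the wider butyrophilin family only 4 of 11 genes had enough reads in males, where *Btnl2* rose (1.14, edgeR adjusted p = 0.0111) and *Btnl9* fell (-0.58, edgeR adjusted p = 0.00162). In females 3 were tested, and *Skint11* was the gene called.

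Markers of differentiating and stressed keratinocytes were higher after UVB in the same libraries. Of 13 genes of suprabasal, differentiating keratinocytes, 12 rose in males and 9 in females, none fell, and their mean summed level was 14441 CPM in no-UVB males, 34539 CPM in UVB males, 12939 CPM in no-UVB females and 20634 CPM in UVB females. Of 10 genes of basal keratinocytes, 4 rose and 2 fell in males, and 1 rose and 1 fell in females, counts not far from the shares over all genes (29.0% and 30.5% in males, 12.8% and 10.6% in females). All 8 genes of stressed keratinocytes rose in males and 6 in females. Read against the suprabasal list, the *Skint* family held 28.8 ± 2.55 reads per 1000 list reads in no-UVB males and 11 ± 1.1 in UVB males, and 35.9 ± 3.42 and 21.3 ± 1.15 in the corresponding females, without overlap in either sex. Against the basal list it was 45.5 ± 3.96 and 33.9 ± 3.95 in males and 54.9 ± 4.18 and 62.0 ± 10.9 in females, and only the male ranges were apart.

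Genes of other layers of the skin differed between the groups as well. In males after UVB, 8 of 10 dermal fibroblast genes, 9 of 10 skeletal muscle genes, 6 of 10 adipocyte genes and 6 of 8 Langerhans cell genes were lower, and the other 2 Langerhans cell genes were higher, where 30.5% of all genes were lower and 29.0% higher. In females 1 gene of each of the fibroblast and Langerhans lists was lower and 1 of each of the fibroblast and adipocyte lists was higher (*Lum* and *Pparg*, named after their values were seen), and no muscle gene was called. The shares over all genes were 10.6% lower and 12.8% higher in females, so that single genes of a list of 8 or 10 are at the background. Against the same shares, hair follicle genes were lower for 5 of 5 tested in males and 2 of 5 in females. Inner root sheath keratins, named after their values were seen, were uneven among no-UVB males, *Krt71* at 0.14 to 39.9 CPM and *Krt27* at 0.23 to 13.8 CPM, and at most 1.75 and 0.98 CPM in the other groups. Sebaceous gland genes were higher for 5 of 10 in each sex and lower for 2 in males. Neutrophil genes were higher for 5 of 8 tested in males and 2 of 6 in females and lower for 1 in each, where 29.0% and 12.8% of all genes were higher. The lists overlap, since *S100a8* and *S100a9* are also in the stressed keratinocyte list and *Il1r2* is also in the Langerhans cell list. In females *Il1r2* was the gene called lower in both of its lists (log2 change -0.40, edgeR adjusted p = 0.0953). Among 10 monocyte and macrophage genes 2 were higher and 4 lower in males and 1 was lower in females, near the shares over all genes. Without UVB, 5 of 10 fibroblast genes and 6 of 10 muscle genes were higher in males than in females and none lower, where 7.21% of all genes were higher and 4.58% lower. The collagen genes *Col1a1* and *Col1a2* were higher by log2 differences of 2.55 and 2.35 (edgeR adjusted p = 3.8e-07 and 3.16e-07), and the fibroblast list summed to 95978 ± 4872 CPM in no-UVB males and 23225 ± 407 CPM in no-UVB females. After UVB, 10 of 13 suprabasal, 7 of 8 stress and 5 of 10 basal keratinocyte genes were higher in males, against 12.8% of all genes. So were 4 of 10 fibroblast and 4 of 8 neutrophil genes. The suprabasal genes *Krt10*, *Krt1* and *Dsp* were higher by 0.80, 1.63 and 0.38 (edgeR adjusted p = 0.0032, 0.00207 and 0.0714). The basal genes *Krt14* and *Krt5* were higher by 1.17 and 0.72 (edgeR adjusted p = 0.00223 and 0.012), while *Krt15* was at -0.27 and not called (edgeR adjusted p = 0.386). In the same comparison 8 of 10 adipocyte, 5 of 8 Langerhans cell and 3 of 10 muscle genes were lower in males, against 12.5% of all genes. The part of tissue make-up in the *Skint* differences was not tested. Keratins of the labelled tissue were abundant, with *Krt5* at 1625 to 4018.8 CPM and *Krt10* at 3034.7 to 10953 CPM over the 16 mice.

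How the members varied together was described by Pearson's r over the 16 mice, which share libraries and groups. Over log2 CPM, the 45 pairs of members ranged from -0.638 to 0.945 with a median of 0.4, and 14 pairs were negative. *Skint5* was closest to *Skint6* (0.945), *Skint7* (0.902) and *Skint10* (0.902), and opposed *Skint1* (-0.638) and *Skint3* (-0.636). After the group means were taken away, the median was 0.519 and only 3 pairs were negative, led by *Skint9* with *Skint10* (0.845), *Skint5* with *Skint6* (0.842) and *Skint1* with *Skint3* (0.836). Mice of the same group thus tended to be high or low for most members at once, and the opposite directions were between groups. Outside the family, the genes most like the mean of the members were *Krt23* (0.924), *Ankrd12* (0.916), *Lpcat2* (0.879), *Dscaml1* (0.862) and *Tnfrsf11b* (0.852), of which *Dscaml1* averaged 0.45 CPM. On deviations from the group means they were *Krt23* (0.957), *Aldh3b3* (0.902), *Atp10b* (0.899), *Dnah10* (0.884) and *Heca* (0.88), so that *Krt23*, an epithelial keratin, led by either measure.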

How the data were processed

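Polyadenylated RNA from the dorsal skin of 16 mice was made into directional libraries and sequenced. STAR was run by the authors against GRCm39, and they deposited whole-number counts per Ensembl gene, without normalization, where reads that map to several places are not counted on genes. The version of STAR and the annotation used were not given in the sources used here. The sense-strand count was used, since the other strand held 3.63 to 4.23% of gene reads, and 0 columns of other samples were present.

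Names, positions and lengths came from GENCODE M39, which matched 54749 of 55359 identifiers. Genes were kept by filterByExpr, scaled by TMM and tested with edgeR 4.0.16 (quasi-likelihood, robust) in R 4.3.3, with Benjamini-Hochberg adjustment over all genes tested and a threshold of 0.1, within each sex (8 mice) and, for the interaction and the sexes, over 16 mice. The study's methods use DESeq2 with the same adjusted p and a log2 fold change, shrunken by apeglm, past 1. DESeq2 1.42.0 was run as an alternative, with changes that were not shrunken. Other alternatives were the unstranded count, other scalings, filters and thresholds, a replicate block, another fit and leaving out each mouse. On simulated data with a log2 change of 1 in 200 genes, 200 were recovered in males with 20 false calls. In females 200 were recovered with 15 false calls, and for the interaction 181 with 22. Recovery of smaller changes, which include most of those of the *Skint* members, was not tested.

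Upstream windows of 250 bases were read from GRCm39 at the canonical starts of GENCODE M39. Protein identity was taken from translated canonical coding sequences, aligned with BLOSUM62 in Biopython 1.88. Libraries of a group differed beyond sampling noise (chi-square per degree of freedom 9.54 to 98.3), so none was a duplicate. The named genes were all 10 members, the 5 genes most like them, tested genes within 500 kb of the cluster, and up to 3 genes of highest CPM in a list. *Gm12823*, which overlaps a member, and the genes the text marks as picked or named after their values were seen lie outside this rule. The members, the 14 lists and the tests were chosen with earlier results of these data known, and the ratios of sequence pairs were added after the values were seen.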

Additional observations from a re-analysis of the deposited data

Results flagged for a closer look

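Within each of the 40 combinations of gene and group, the lowest and the highest of the 4 mice were compared with the nearest other mouse, and 3 combinations passed Dixon's 95% critical value (chance gives about 1 in 20). *Skint3* in no-UVB males had a lowest value of 91.5 CPM, in replicate 2, below 3 mice at 107.9 to 108.5. *Skint7* in no-UVB males had a highest value of 33.1 CPM, in replicate 1, above 3 mice at 23.6 to 25.1. *Skint9* in UVB males had a highest value of 57.0 CPM, in replicate 3, above 3 mice at 43.1 to 44.4. Leaving out any of these mice kept the calls of *Skint3* and *Skint7* in males, and *Skint9* was not called in males in any such fit.

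The response of *Skint9* differed between the sexes by the test of the interaction itself, at a log2 difference of -0.597 for males minus females (edgeR adjusted p = 0.0853, range over fits without a mouse 0.0536 to 0.17).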

How the results depend on the processing

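The male calls, 6 lower and 2 higher, and the female calls of *Skint7*, *Skint5* and *Skint9* had the same direction under each other scaling, filter, test and strand setting and in each fit without a mouse, where *Skint9* and *Skint5* in females reached adjusted p values of 0.0749 and 0.0512 at most. With a log2 change past 1 also asked for, the counts were 0 higher and 2 lower in males, 0 higher and 1 lower in females, and 0 lower for the interaction and for the sexes without and after UVB. At an adjusted p under 0.05 the interaction had 0 lower and the sexes without UVB 1 lower. Females had 2 higher in a single fit of all 16 mice. The interaction had 2 lower under upper quartile scaling, DESeq2's Wald test or at least 10 counts in every mouse, 0 lower with every gene of at least 1 count, and 1 higher (*Skint1*) under DESeq2's test or TMM without the 100 most abundant genes. With every gene of at least 1 count, the sexes without UVB had 1 lower. In the fits without a mouse, the count lower in females ran from 2 (without no-UVB female replicate 3) to 5, for the interaction from 0 to 3 lower and 0 to 1 higher, for the sexes without UVB from 1 to 6 lower, and for the sexes after UVB from 0 to 1 higher.

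With the replicate number as a replicate block, females had 2 higher and the interaction 2 lower, and counts in the other comparisons stayed within 1.5 times. Same-numbered mice of different groups shared no source in the labels, and their deviations correlated at -0.123 to 0.217. Whether they shared anything beyond the number was not tested.

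Changes of sign were confined to values that were not called. *Skint8* for the interaction was at 0.00178 under TMM without the 100 most abundant genes and ran from -0.141 to 0.143 in fits without a mouse. For the sexes without UVB, *Skint10* and *Skint5* were at -0.00967 and -0.00924 with the unstranded count, -0.00532 and -0.00643 with DESeq2's size factors, -0.018 each with upper quartile scaling, -0.012 and -0.0133 with TMM without the 100 most abundant genes, -0.00512 and -0.00572 with DESeq2's test, -0.00493 and -0.00752 with every gene of at least 1 count, and -0.00452 and -0.00563 with at least 10 counts in every mouse. In fits without a mouse they ran from -0.0551 to 0.0557 and from -0.0776 to 0.0719, and *Skint9* from -0.0617 to 0.128. In females, *Skint1* ran from -0.0715 to 0.199 and *Skint2* from -0.124 to 0.258, and *Skint2* for the interaction from -0.0275 to 0.371. The cause of these differences was not tested.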
